A study of Mus musculus with 8 samples.

Results

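The amyloid precursor protein gene App, 2 relatives of it (Aplp1, Aplp2), 5 genes that encode its proteases or their subunits (Bace1, Bace2, Psen2, Ncstn, Adam10) and the adaptor gene Apbb1 were followed across 8 hippocampal arrays. These 9 of the 20660 named genes on the array were taken as every non-control probe whose RefSeq accession maps to one of the 9 symbols, which gave 10 probes: 1 for each of 8 genes and 2 for Bace2. All 10 were well above background on all 8 arrays. The arrays hold total hippocampal RNA of 3-month-old mice, 4 from Ts1Cje mice and 4 from disomic wild-type mice, of strain C57BL6/J per the labels and described by the series as 4 littermate pairs. Ts1Cje mice, used as a model of Down syndrome, carry distal chromosome 16, from Sod1 to Zbtb21, in 1 copy more than normal, on a translocation that also removed the distal end of 1 chromosome 12, and 1 copy of Sod1 is disrupted. All 4 Ts1Cje samples therefore share the extra segment and the chromosome 12 loss, and a change cannot be assigned to either from the genotype alone. Bace2 lies in the triplicated segment. App lies on the same chromosome, proximal to it, with 2 copies, and the other 7 genes lie on chromosomes 1 (Psen2, Ncstn), 7 (Aplp1, Apbb1) and 9 (Bace1, Adam10, Aplp2).

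App is a membrane protein, abundant in neurons, that is cut in competing ways. Adam10 cuts it at the alpha site, inside the amyloid-beta stretch, and Bace1 cuts it at the beta site. The gamma-secretase complex, built on a presenilin such as Psen2 and on nicastrin (Ncstn), then releases amyloid-beta from the beta-cut stub. Bace2 is the paralog of Bace1. It cuts App mainly within the amyloid-beta stretch and is known for its work in pancreatic islets and pigment cells. In Down syndrome the human counterpart of App is itself triplicated, whereas Ts1Cje leaves it at 2 copies, so these arrays show the pathway with an extra Bace2 and no extra App.

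Signals are given below as log2 of the background-corrected intensity over the 75th percentile of its own array, so that 0 is that percentile and 1 unit is a doubling. Each array had 59.9% to 63.1% of its 55681 non-control probes well above background. Any pair of arrays correlated at Pearson's r of 0.992 to 0.996 across the 32596 tested probes, which are not independent replicates. Hippocampal markers were present. Of 40 markers of hippocampal and neighbouring cell types, 38 had a tested probe, all 38 were well above background on all 8 arrays, and none passed the test between genotypes. Precision is limited by the number of arrays. Each label is read as a separate mouse, and if some are not, the p-values describe technical spread. In bulk tissue, fewer cells of a type and less RNA per cell cannot be told apart.

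Transcripts of App and of its 2-copy proteases and relatives stood at nearly the same level in both genotypes, apart from the dim Ncstn probe and the lower Apbb1. Bace2 stood higher on average in Ts1Cje on both of its probes, by 1.34-fold and 1.54-fold, with arrays that overlapped between genotypes. None of the 10 probes passed (limma, Benjamini-Hochberg adjusted p under 0.05 over all tested probes), where 0.187% of all probes did, and 1 of 10 had an unadjusted p under 0.05, where 8.44% of all probes did.

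**Figure D1:**
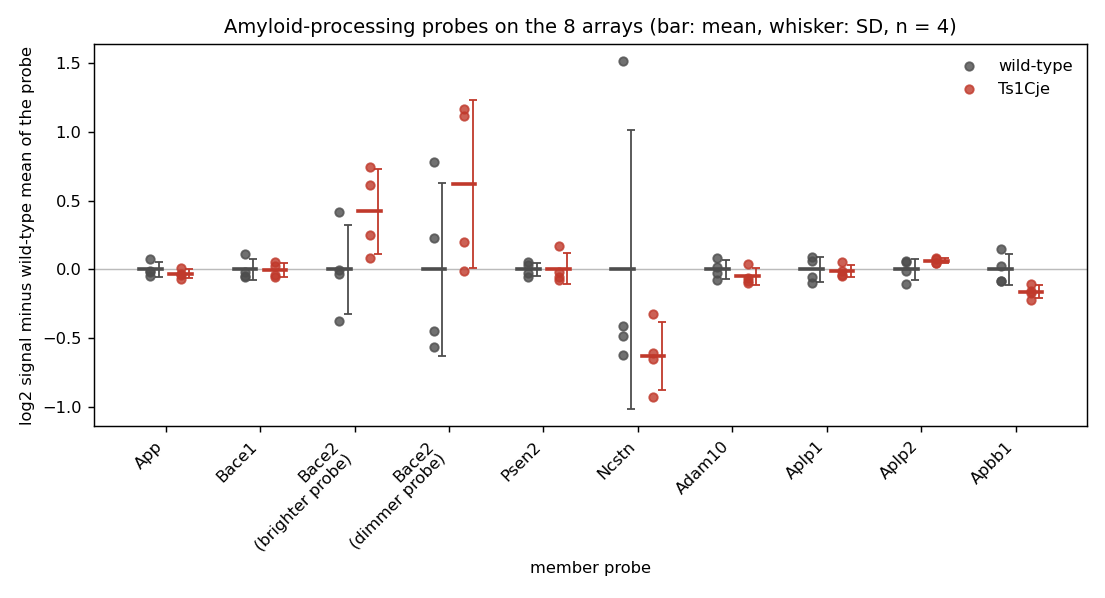
Log2 signal of each member probe on each array, minus the wild-type mean of that probe (vertical axis), for 4 wild-type (grey) and 4 Ts1Cje arrays (red) per probe; thick bars are group means and whiskers the SD. The App, Bace1, Adam10, Aplp1 and Aplp2 points lie close together, both Bace2 probes spread over the widest range apart from Ncstn, and 1 wild-type Ncstn value lies far above the rest.

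The substrates come first. The App probe is printed as 2 spots on each array, whose log2 signals differed by 0.01 to 0.09. Averaged over both spots, App stood at 6.62, 6.61, 6.58 and 6.71 in wild-type replicates 1 to 4, and at 6.56, 6.59, 6.60 and 6.64 in the Ts1Cje replicates. The Ts1Cje values lay within or just under the wild-type range, and the groups overlapped. The difference was -0.03 (SE 0.05, moderated 95% interval -0.14 to 0.08; limma adjusted p = 0.87). In fold terms the interval ran from 0.906 to 1.06 times the wild-type level. It therefore excludes the 1.5-fold that 3 copies over 2 would give, 0.58 on the log2 scale.

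Aplp1, a brain-enriched relative of App that lacks the amyloid-beta sequence, stood at 6.59, 6.78, 6.63 and 6.75 in wild type and at 6.68, 6.64, 6.65 and 6.74 in Ts1Cje. The Ts1Cje arrays all fell inside the wild-type range. Aplp2, the broadly expressed relative, stood at 5.65, 5.72, 5.55 and 5.71 in wild type. Its 4 Ts1Cje arrays lay between 5.71 and 5.74, level with the 2 higher wild-type arrays and above wild-type replicates 1 and 3. The differences were -0.01 (SE 0.06, adjusted p = 0.96) for Aplp1 and 0.07 (SE 0.05, adjusted p = 0.74) for Aplp2.

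Of the proteases, Bace2 was the one with an extra copy. On its brighter probe the wild-type arrays stood at -0.06, -0.03, 0.40 and -0.40, and the Ts1Cje arrays at 0.72, 0.23, 0.59 and 0.06, in replicate order. Ts1Cje replicates 1 and 3 were the 2 highest of the 8. Wild-type replicate 3 came next, above Ts1Cje replicates 2 and 4, so the groups overlapped. The difference was 0.42 (SE 0.20, adjusted p = 0.61), and a two-sided exact permutation test (70 ways to assign the arrays) gave p = 0.14, where the smallest possible value is 0.029. In this fit without a block, the 95% interval, -0.03 to 0.87, held both no change and the 3-copy ratio. With the replicate number as a block, the interval was 0.14 to 0.71, which excludes 0 (limma unadjusted p = 0.013, adjusted p = 0.37). On the dimmer probe, the interval with this block, -0.17 to 1.41, held 0. It is not known whether the numbering follows the littermate pairs, so whether 0 is excluded depends on the design chosen.

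The dimmer Bace2 probe gave a similar order of arrays. It stood at -3.23, -2.55, -2.0 and -3.35 in wild type and at -1.62, -2.79, -1.66 and -2.58 in Ts1Cje. Again Ts1Cje replicates 1 and 3 were highest and wild-type replicate 3 next. The difference was 0.62 (SE 0.38, 95% interval -0.25 to 1.49, adjusted p = 0.67; two-sided exact permutation p = 0.23). Both probes have the same RefSeq accession and the same 8 RNA samples, and across the 8 arrays they correlated with Pearson's r = 0.93 (exact permutation p = 0.0012, or 0.0024 adjusted over both measures) and Spearman's rho = 0.90 (exact permutation p = 0.0046, unaltered by the adjustment). Without Ts1Cje replicate 1 and wild-type replicate 4, the 2 arrays farthest from the median of the brighter probe, r was 0.87. Within wild type the highest and the lowest array were the same on both probes, as was the highest within Ts1Cje.

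**Figure D2:**
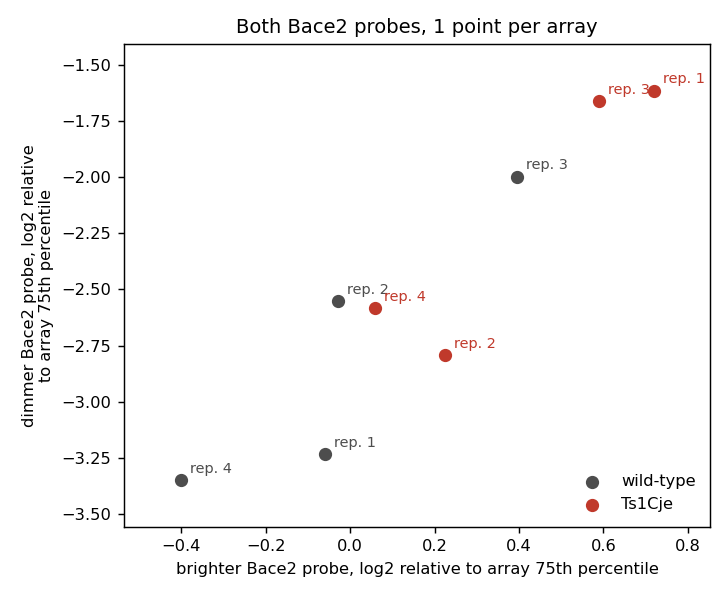
Log2 signal of the brighter Bace2 probe (horizontal axis) against the dimmer Bace2 probe (vertical axis), each over its array's 75th percentile, with 1 point for each of the 4 wild-type (grey) and 4 Ts1Cje (red) arrays. The points rise together, and wild-type replicate 3 lies above and to the right of Ts1Cje replicates 2 and 4.

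The spread of Bace2 within a genotype was large. On the brighter probe the highest wild-type array stood 1.74-fold above the lowest and the highest Ts1Cje array 1.58-fold above the lowest, and on the dimmer probe these ratios were 2.55 and 2.26. The SD within genotypes was 0.32 and 0.62 on the log2 scale, at the 90.3 and 98.2 percentile of all tested probes, whose median was 0.13. App, at 0.04, was at the 4.36 percentile. The Bace2 difference moved with the array left out. Without wild-type replicate 3 it was highest, 0.56 on the brighter and 0.88 on the dimmer probe. It was lowest without wild-type replicate 4, at 0.30 and 0.43. Without Ts1Cje replicate 1 it was 0.31 and 0.44. Other arrays moved it nearly as far. The brighter probe gave 0.54 without Ts1Cje replicate 4, and the dimmer gave 0.83 without Ts1Cje replicate 2. No setting with 1 array left out passed on either probe (limma adjusted p between 0.48 and 0.84). Within slide row 1, which holds replicates 1 and 2 of both genotypes, the brighter probe differed by 0.52 (SE 0.19), and within slide row 2, which holds replicates 3 and 4, by 0.33 (SE 0.34).

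Summed signal of 4 choroid plexus markers (Ttr, Kl, Folr1, Kcnj13), all detected on all 8 arrays, was highest in wild-type replicate 3, at 5.61 times the 75th percentile of the array, against 2.32 to 3.97 in the other wild-type arrays and 2.75 to 4.08 in Ts1Cje. Wild-type replicate 4, the lowest array for Bace2 on both probes, had the second highest sum of wild type, 3.97. Ts1Cje replicate 1, the highest array for Bace2 on both probes, had the highest sum of its group. Ts1Cje replicate 3, the second highest for Bace2 on the brighter probe, had the lowest sum of that group, 2.75. The 3 ependymal markers (Tmem212, Ccdc153, Dynlrb2) summed to 3.70 to 5.03 in wild type and 2.67 to 3.79 in Ts1Cje. The part of either cell type in the Bace2 values was not tested.

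Bace1, the main beta-site enzyme of neurons, was level between genotypes. It stood at 3.08, 3.22, 3.05 and 3.06 in wild type and at 3.12, 3.04, 3.15 and 3.06 in Ts1Cje, and the groups overlapped throughout. Its difference of -0.01 (SE 0.06, 95% interval -0.14 to 0.13, adjusted p = 0.98) leaves room for a level between 0.910 and 1.09 times that of wild type. Whether the 2 paralogs changed differently was tested on the difference between their log2 signals on each array. The change of Bace2 exceeded that of Bace1 by 0.43 and that of App by 0.45, with two-sided exact permutation p = 0.11 and p = 0.14 (0.14 each after Benjamini-Hochberg adjustment over these 2 tests), so neither difference passed.

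Adam10, the alpha-secretase, stood at 2.36, 2.27, 2.43 and 2.32 in wild type and at 2.28, 2.26, 2.25 and 2.38 in Ts1Cje. Only Ts1Cje replicate 4 reached the middle of the wild-type range. The difference was -0.05 (SE 0.06, adjusted p = 0.81). Psen2, one of the 2 alternative catalytic subunits of gamma-secretase, stood at 1.57, 1.48, 1.59 and 1.51 in wild type and at 1.71, 1.52, 1.48 and 1.46 in Ts1Cje. Ts1Cje replicate 1 was its highest array and Ts1Cje replicate 4 its lowest, and the means differed by 0.01 (SE 0.07, adjusted p = 0.98).

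Ncstn, the substrate-binding subunit of gamma-secretase, was measured poorly. Its probe gave 28.3 to 43.4 intensity units on 7 arrays and 151 on wild-type replicate 1. On the log2 scale the wild-type arrays stood at -1.91, -3.83, -4.04 and -3.90 and the Ts1Cje arrays at -4.03, -3.75, -4.07 and -4.35. The groups overlapped. The difference of -0.63 (SE 0.45, 95% interval -1.66 to 0.41, adjusted p = 0.71) was -0.12 without wild-type replicate 1 (adjusted p = 0.83).

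Apbb1 encodes Fe65, an adaptor that binds the cytoplasmic tail of App. It stood at 3.04, 2.93, 3.17 and 2.93 in wild type and at 2.91, 2.86, 2.85 and 2.80 in Ts1Cje. Every Ts1Cje array lay below every wild-type array, the only member probe of the 10 whose groups did not overlap. Over all tested probes, 6.00% did not overlap in either direction, and 3.59% were lower in Ts1Cje without overlap. The lowest wild-type and the highest Ts1Cje array nearly met. The mean was 0.894 times the wild-type level (log2 difference -0.16, SE 0.07, 95% interval -0.31 to -0.01), and it did not pass (adjusted p = 0.56, unadjusted p = 0.038; exact permutation p = 0.029, two-sided, which is the lowest this design can reach). Without wild-type replicate 3 the difference was -0.11.

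**Figure D3:**
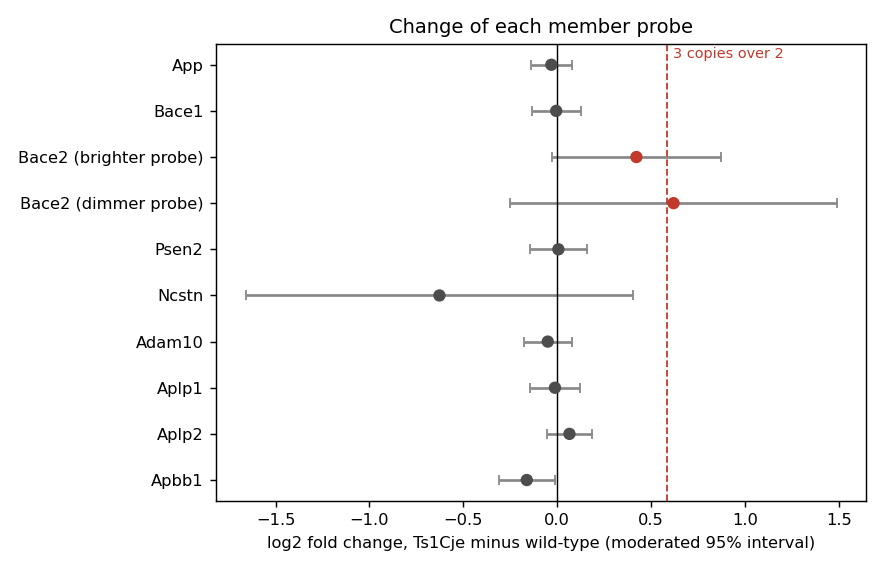
Log2 fold change of each member probe, Ts1Cje minus wild-type (horizontal axis), as limma's estimate (point) with its moderated 95% interval (line); Bace2 is red and the dashed line marks 3 copies over 2, at 0.58. In this fit without a block, both Bace2 intervals hold 0 and the dashed line, and the intervals of the other 8 probes lie below the dashed line.

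Taking the 8 probes of 2-copy genes together, 2 stood above 0 and 6 below, with a median of -0.02 against -0.01 over all tested probes. All 8 intervals lay below the 3-copy ratio. For 7 of them, Ncstn left out, the intervals were narrow enough to place the transcript between 0.805 and 1.14 times its wild-type level.

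The nearest genes of App and of Bace2 were compared in the same way. Of the 5 nearest tested named genes on each side of App (Ncam2, Mrpl39, Jam2, Atp5j and Gabpa proximal, Cyyr1, Adamts1, N6amt1, Ltn1 and Rwdd2b distal) none passed and 1 of 10 had an unadjusted p under 0.05. Their differences ran from -0.15 (Gabpa, a subunit gene of an ETS-family transcription factor) to 0.20 (Cyyr1, SE 0.20), with a median of 0.01. The interval of Cyyr1, -0.26 to 0.66, held both 0 and the 3-copy ratio. Another 77 tested named genes lie between App and Bace2, so these neighbours do not place the border of the segment.

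All 10 neighbours of Bace2 stood above 0, between 0.15 and 0.81, with a median of 0.45, where 47.7% of all tested probes stood above 0. Of these 10, 2 passed as higher, against 0.169% of all probes, and both lie on the proximal side. A limma unadjusted p under 0.05 was found for 6 of 10, against 8.44% of all probes. Pcp4, a calmodulin-binding protein gene, was 1.53-fold higher (log2 0.61, SE 0.06, adjusted p = 0.011), and Dscam, the neuronal adhesion gene next to Bace2, was 1.56-fold higher (0.65, SE 0.06, adjusted p = 0.012). Both lost the call without wild-type replicate 1 or without Ts1Cje replicate 2, 3 or 4, and Dscam also without wild-type replicate 2 or 4, at adjusted p between 0.051 and 0.071. Both also lost it with no filter on dim probes (0.068 and 0.071) and with the replicate number as a block (0.096 and 0.12). The same held within either slide row alone (0.74 or more), and for Dscam with the array median as centre (0.063). Over all 21 alternatives the differences stayed between 0.56 and 0.64 for Pcp4 and between 0.59 and 0.68 for Dscam.

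On the distal side Ripk4, a receptor-interacting kinase gene, stood at 0.15 (SE 0.14), Prdm15 at 0.55 (SE 0.40), C2cd2 at 0.81 (SE 0.15), Zbtb21 at 0.43 (SE 0.10) and A630089N07Rik, annotated beyond Zbtb21, at 0.31 (SE 0.16), with adjusted p of 0.12 or more. The remaining proximal neighbours Sh3bgr, B3galt5 and Igsf5 stood at 0.42, 0.47 and 0.22, with adjusted p of 0.11 or more. The estimate for Bace2 falls inside this range, and its SE of 0.20 was larger than that of every one of these 10 genes except Prdm15.

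**Figure D4:**
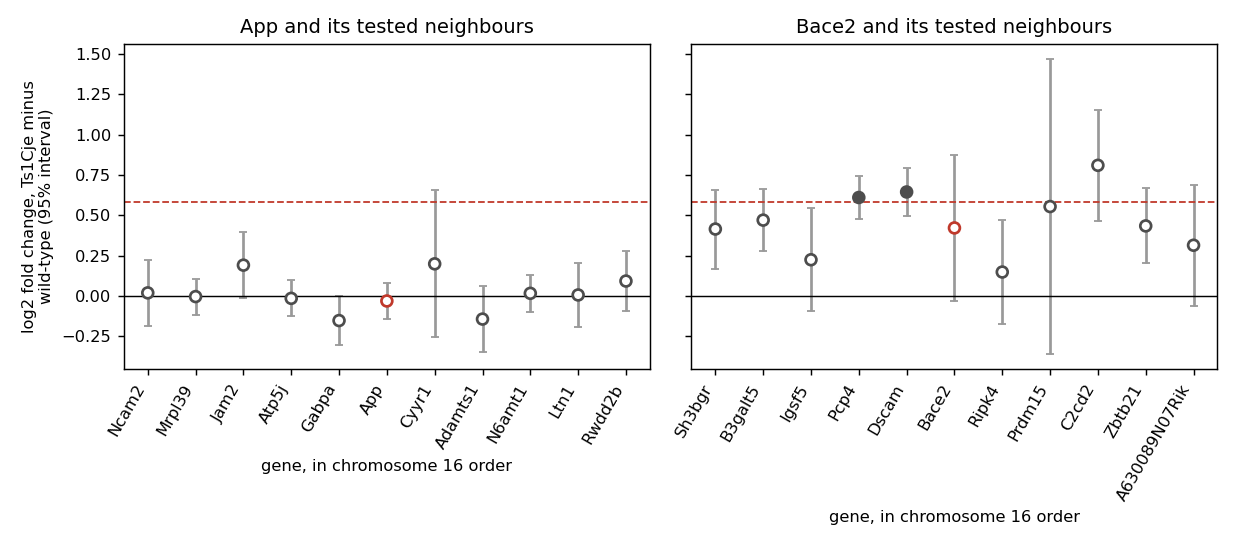
Log2 fold change, Ts1Cje minus wild-type, with moderated 95% intervals (vertical axis) for App (left, red) and Bace2 (right, red) and the 5 tested named genes on each side in chromosome order (horizontal axis); filled points passed, open points did not, and the dashed line marks 3 copies over 2. The genes around App lie near 0 and all 10 neighbours of Bace2 lie above 0, with Pcp4 and Dscam filled.

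Beyond the 9 genes, a list of 66 genes of App cleavage, binding, sorting and clearance and of other substrates of the same proteases was examined, through the brightest tested probe of each. Of these, 60 were tested; Mme, which encodes the amyloid-degrading protease neprilysin, and 3 others (Cltrn, Mep1a, Mep1b) had no probe well above background on all arrays of a genotype, and 2 were not analysed here. No gene of the 60 passed in either direction (limma, adjusted p of 0.41 or more). An unadjusted p under 0.05 was found for 4 of 60, or 6.67%, against 8.44% of all tested probes. The median difference was -0.01, as over all probes, with 26 above 0 and 34 below, and the groups did not overlap for 4 of 60 against 6.00% of all probes.

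Among gamma-secretase partners, Aph1a, which encodes the scaffold subunit of the complex, had the second smallest p of the list. Its wild-type arrays stood at 1.48, 1.51, 1.52 and 1.5 and its Ts1Cje arrays at 1.61, 1.62, 1.66 and 1.62. The Ts1Cje arrays were higher than every wild-type array, by 1.09-fold on average (log2 difference 0.13, SE 0.04, adjusted p = 0.48), where 2.41% of all tested probes were higher without overlap. Its other tested probe stood at -0.13 (SE 0.06, adjusted p = 0.62), the opposite direction, so the gene has no settled direction here. Aph1b, the alternative scaffold subunit, stood at -0.01 (SE 0.07), and Psenen, the smallest subunit, at -0.02 (SE 0.05).

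The other sheddases were flat on their brightest probes, Adam17 at 0.02 (SE 0.12) and Adam9 at -0.03 (SE 0.07). The second Adam17 probe stood at -0.31 (SE 0.16, adjusted p = 0.63). Of the amyloid-degrading proteases, Mmp14, a membrane-bound matrix metalloproteinase, had the smallest p of the list. It stood at -2.44, -2.19, -2.40 and -2.60 in wild type and at -2.79, -2.66, -2.89 and -2.62 in Ts1Cje. The groups did not overlap, though wild-type replicate 4 and Ts1Cje replicate 4 nearly met. Its Ts1Cje mean was 0.795 times the wild-type mean (log2 difference -0.33, SE 0.10, adjusted p = 0.41). Ide, which encodes insulin-degrading enzyme, stood at 0.19 (SE 0.19).

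Of the 8 genes for receptors, carriers and clearance, 6 stood below 0. Clu, which encodes the extracellular chaperone clusterin, stood at 7.87, 7.91, 7.80 and 7.82 in wild type and at 7.78, 7.64, 7.65 and 7.76 in Ts1Cje. The 4 Ts1Cje arrays lay below the 4 wild-type arrays, at 0.906 times their mean (log2 difference -0.14, SE 0.05, adjusted p = 0.54). Apoe, the main lipid carrier of the brain, stood at -0.06 (SE 0.06). Of the 13 sorting and trafficking genes 11 stood below 0, with a median of -0.03. Over all tested probes, 47.7% stood above 0. Other roles went the other way, with all 4 tested genes for meprins and lysosomal proteases above 0. So were 3 of the 4 tested genes for amyloid-degrading proteases. Roles were assigned after values were seen, so these counts are a description only. Sorl1, whose product sorts App away from the secretases, stood at -0.16 (SE 0.06, adjusted p = 0.55), and its groups overlapped. The brightest probes of the 9 other cytoplasmic adaptors and partners of App lay between -0.09 and 0.07. Apbb2, a paralog of Apbb1, stood at -0.03 (SE 0.08) on its brightest probe and at -0.15 (SE 0.10) on its second tested probe. Apbb3 stood at 0.07 (SE 0.05).

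**Figure D5:**
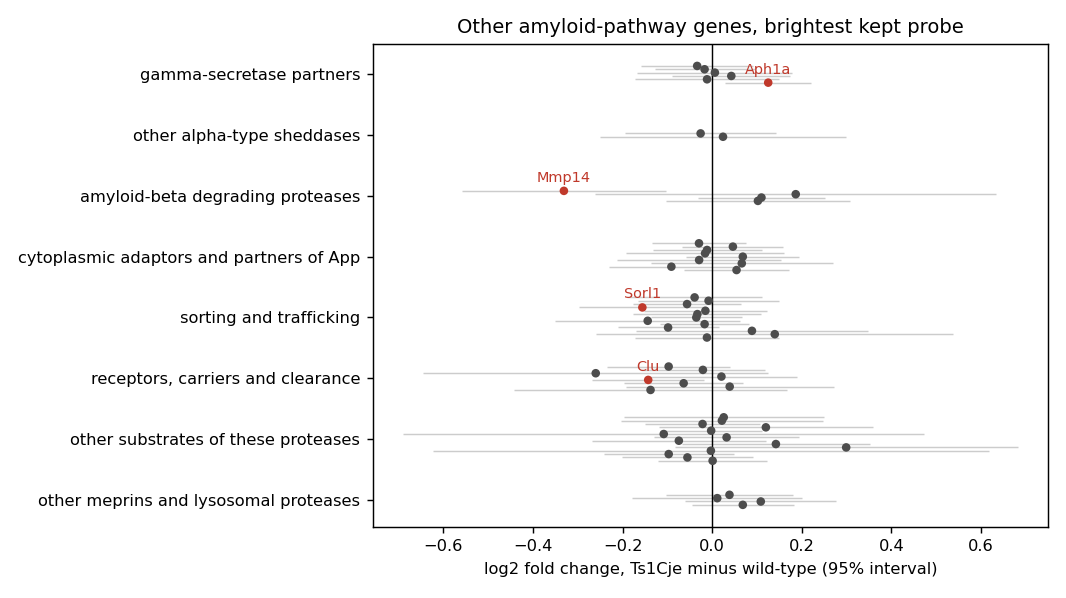
Log2 fold change of the 60 tested pathway genes, Ts1Cje minus wild-type, with moderated 95% intervals (horizontal axis), grouped by role (vertical axis); red points with names had an unadjusted p under 0.05. The medians of the 8 roles lie between -0.08 and 0.11, and Mmp14, Sorl1, Clu and Aph1a are the 4 named points.

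The genes whose pattern over the 8 arrays was most like that of App, among 14730 genes with a probe above background on all 8, were Fubp3 and Poc1a (Pearson's r = 0.97 each). For Bace2 they were Sergef (0.96), Tmem201 (0.95) and Vegfd (0.95), none of them on chromosome 16. These are the highest of 14730 values over 8 shared arrays and are given as a description only. None of the 5 passed between genotypes (adjusted p between 0.56 and 0.89).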

How the data were processed

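Cy3-labelled hippocampal RNA was hybridised to 1-colour Agilent arrays, 1 per sample, on 1 slide with 4 arrays in each of 2 slide rows, per the labels' protocols and file headers. The authors deposited linear intensities quantified with Agilent Feature Extraction 10.10.1.1, per the file headers: a background-corrected processed signal, not normalized between arrays, and median spot and local background brightness. Probes had been designed on mm9. Control spots and outlier-flagged spots were left out, log2 processed signals were averaged where a probe has several spots, and each array was centred on its 75th percentile. A probe was kept if well above background in all 4 samples of either group (32596 of 55681). A RefSeq table of GRCm38.p6 matched 27235 probes to symbols. Because builds differ, it gave names, chromosomes and gene order, and no coordinates.

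All kept probes were fitted with limma 3.58.1 in R 4.3.3 (lmFit, eBayes, no block), with Benjamini-Hochberg adjustment over all of them and a call at 0.05; the fit was tested on simulated data. Exact permutation tests used scipy 1.17.1, and plots matplotlib 3.10.9. The members and lists were chosen with earlier results of these data known. Named genes are the 9 members, the 4 pathway genes with the smallest p, 9 listed secretase, carrier and protease genes (where measured), 5 neighbours on each side of App and Bace2, and the 3 genes most like each in pattern (1 for App is not reported here). Pathway roles were assigned after values were seen. Alternatives tried were normexp, quantile normalization, the array median, other probe filters and summaries, array weights, another variance prior, replicate or slide row as a block, slide rows alone and each array left out.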

Additional observations from a re-analysis of the deposited data

Results flagged for a closer look

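In 2 of 80 sets of 4 arrays (member probes, named pathway genes and neighbours, by genotype) 1 array lay far from the other 3, by the gap to its nearest neighbour over the range of the set, where chance gives about 1 in 20, or 4. Ncstn on wild-type replicate 1 stood at -1.91, against -4.04 to -3.83 on the other wild-type arrays. Adam9 on wild-type replicate 3 stood at 2.43, against 2.18 to 2.19.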

How the results depend on the processing

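No member probe and no gene of the pathway list passed in the main setting or in any of 21 alternatives. Bace2 stood above 0 in every setting tried. On the brighter probe it lay between 0.30 and 0.56 (adjusted p of 0.37 or more), counting the setting that averages both probes. On the dimmer probe, fitted in 19 alternatives, it lay between 0.36 and 0.88, and the lowest value came from normexp. App, Adam10, Apbb1 and Ncstn stayed below 0 and Aplp2 above 0 in all 21. Genes near 0 changed sign: Bace1 to 0.014 with quantile normalization and 0.055 in slide row 2 alone (-0.025 to 0.033 with 1 array left out), Psen2 to -0.044 with the array median, -0.012 with array weights and -0.076 in slide row 2 alone (-0.048 to 0.033), and Aplp1 to 0.017 with normexp, 0.0071 with quantile normalization and 0.0013 in slide row 2 alone (-0.045 to 0.018). Over 12 alternatives the excess of Bace2 over Bace1 ran from 0.32 to 0.58 and that over App from 0.30 to 0.61. No adjusted exact permutation p fell under 0.057, and the 2 ends came from leaving out wild-type replicate 4 and wild-type replicate 3. With 1 array left out, 0.057 is the lowest p this two-sided test can give, so those settings could not pass. An exact sign-flip test of the same-numbered differences gave p = 0.125 for both. That is the lowest it can reach, so it could not pass either.

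The count of all probes passing, 61, was 32 with the array median, 3 with no filter on dim probes, 102 when arrays were weighted, 1 with the replicate block, and 0 in either slide row alone; leaving out 1 array gave 1 (Ts1Cje replicate 4) to 51 (wild-type replicate 3). Of the 20 neighbours, 2 passed, against 3 with the trended and robust prior, 1 with the array median, 0 with no filter, 0 with the replicate block, 0 in slide row 1 and 0 in slide row 2 alone, and 0 to 2 with 1 array left out. The cause of these shifts was not tested, other than that slide rows alone and left-out arrays use fewer samples. The labels do not say that equal replicate numbers mark a littermate pair. Deviations from the group means correlated within numbers at 0.22, 0.19, 0.11 and 0.07, and wild-type replicates 1, 2 and 3 correlated best with their own number but replicate 4 did not, so the numbers were not taken as pairs. On the brighter Bace2 probe Ts1Cje stood above wild type of the same number by 0.78, 0.26, 0.19 and 0.46, and on the dimmer by 1.62, -0.24, 0.33 and 0.77. With the replicate block the Bace2 difference of 0.42 had an SE of 0.11 and a 95% interval of 0.14 to 0.71, which excludes 0 (limma unadjusted p = 0.013, adjusted p = 0.37) on the brighter probe, and -0.17 to 1.41 on the dimmer. Under the block Pcp4 and Dscam lost their call (adjusted p = 0.096 and 0.12). Slide rows alone and the neighbour count were added after seeing the data. Ncstn and the dimmer Bace2 probe lie nearest to background, which limits them most.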
